A study of Mus musculus with 3 samples.

Results

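Gpr83, Penk, Pcsk1 and Pcsk1n encode a peptide receptor and proteins of neuropeptide production, and Ecel1 a member of a family of peptidases. These 5 genes were followed in follicular regulatory T (TFR) cells. They are 5 of the 25759 genes in the deposited tables and were found there by name. They were chosen by their measured values, because Gpr83, Pcsk1, Ecel1 and Penk were among the genes that differed most between the libraries, so the sizes of those differences are a description and carry no test. Of the 5 genes, 4 had reads and 4 passed an RPKM of 5 in at least 1 library, among 7017 genes that did so. RPKM is the number of reads on the exons of a gene scaled to exon length and to the reads of the library.

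Poly(A) RNA of B220-CD4+Blimp-GFP+CXCR5+GITRhi cells from spleen and mLN was sequenced in 3 libraries, 1 per genotype, so no spread between mice can be given and no test between genotypes was possible. All mice were given 125 µg NP-KLH in alum intraperitoneally, boosted on day 7 and analysed on day 10, and all carried FIC (a Cre recombinase made from the Foxp3 locus) and 1 Prdm1 allele with GFP, the reporter used in the sort. The library called N had the genotype Nfatc1 fl/fl.Prdm1 gfp/+.FIC, in which Tregs are meant to be NFATc1-deficient. The library called αA had the genotype Nfatc1 caaA.Prdm1 gfp/+.FIC, meant to give Tregs with a constitutively active NFATc1/αA. The library called PαA had the genotype Nfatc1 caaA.Prdm1 gfp/fl.FIC, in which the other Prdm1 allele is floxed, so that Tregs are meant to lack Blimp-1 as well. The number, age and sex of the mice behind each library are not given in the sources used here.

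The libraries held 25465829 to 29726219 reads, and 80.6% to 83.9% of their exon reads were unique. For Nfatc1 the RPKM was 63.6 in N against 62.9 in αA and 32.4 in PαA. Nfatc1 was thus not lowest in N, the library meant to be NFATc1-deficient, and not higher in αA or PαA than in N. The reason was not tested. Prdm1, which encodes Blimp-1, was at 25.6, 24.9 and 10.0 RPKM. Counts over a whole gene do not show which exons were read, so neither gene checks a deletion by itself, and the library names below are labels only. The T cell markers Cd3d, Cd3e, Cd3g, Cd4 and Cd5 summed to between 2408 and 3074 RPKM, and Foxp3, the regulator of Tregs, was at 32.7, 20.9 and 15.3 RPKM. Of the 9 listed TFR markers, 5 were more than 2-fold lower in PαA than in N, beside 7.77% of all genes above 5 RPKM. The 5 were Prdm1 (log2 ratio -1.36), Ctla4 (-1.33), Pdcd1 (-1.22), Foxp3 (-1.10) and Tnfrsf18 (-1.07). Tnfrsf18 lay nearest the limit, at 2.10-fold, and Prdm1 is the gene floxed in PαA. The count depends on the scaling. TMM factors raise all ratios of this comparison alike, the median of all expressed genes from -0.19 to 0.04. That puts Pdcd1, Foxp3 and Tnfrsf18 within 2-fold.

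Neuropeptides are made as long precursors. Proprotein convertases cut the precursors at pairs of basic residues, carboxypeptidases trim the cut ends, and peptidases on the cell surface later degrade the free peptides. Penk encodes proenkephalin, the precursor of the enkephalins, which act on opioid receptors, and T cells, Tregs among them, are known to express it. Pcsk1 encodes the convertase PC1/3, and Pcsk1n encodes proSAAS, which inhibits PC1/3 and is itself cut into peptides such as PEN. Gpr83 is a G protein-coupled receptor, known as a gene of Tregs and described as a receptor for PEN. Ecel1 encodes a membrane protein of the neprilysin family of peptidases, known from neurons.

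The repeated enkephalin units of Penk and the stretches before Gpr83 and Pcsk1 are shown first. They hold what PC1/3 acts on and the start regions of Gpr83 and Pcsk1, which differed by over 10-fold between αA and PαA. The first is a stretch of 240 bases of the Penk coding sequence (GENCODE, GRCm38, chr4:4133848-4134087, minus strand, all in exon 2 of 2 of the longest coding transcript). Capitals mark 15-base units that spell Met-enkephalin or Leu-enkephalin.

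Penk: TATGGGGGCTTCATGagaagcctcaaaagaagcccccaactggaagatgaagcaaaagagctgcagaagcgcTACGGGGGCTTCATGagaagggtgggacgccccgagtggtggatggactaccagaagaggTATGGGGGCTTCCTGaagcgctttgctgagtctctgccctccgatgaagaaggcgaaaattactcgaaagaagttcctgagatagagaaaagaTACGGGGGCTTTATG

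The coding sequence of 804 bases held 6 Met-enkephalin units and 1 Leu-enkephalin unit, found in frame. The stretch shown held 3 and 1 of them. All 7 units followed a pair of codons for basic residues, the kind of site that PC1/3 cuts, and 5 were followed by such a pair. Reads on Penk thus count a transcript with several enkephalin copies.

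The stretches before the start sites of Gpr83 (chr9:14859960-14860209, plus strand) and Pcsk1 (chr13:75089607-75089825, plus strand) are from RefSeq (GRCm38.p6). RefSeq windows were found for 4 of the 5 genes, all but Penk. Capitals mark GGAAA, the core that NFAT factors bind, GAAAG, which occurs in sites of Blimp-1, and TGACG, the core of cAMP response elements, each on either strand (reverse complement TTTCC for the NFAT core, reverse complement CTTTC for that of Blimp-1 and reverse complement CGTCA for the last).

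Gpr83: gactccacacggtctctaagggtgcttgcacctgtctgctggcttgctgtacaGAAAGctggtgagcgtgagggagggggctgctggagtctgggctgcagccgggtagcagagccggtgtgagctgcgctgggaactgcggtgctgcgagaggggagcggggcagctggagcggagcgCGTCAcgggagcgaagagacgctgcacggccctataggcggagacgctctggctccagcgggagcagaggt

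Pcsk1: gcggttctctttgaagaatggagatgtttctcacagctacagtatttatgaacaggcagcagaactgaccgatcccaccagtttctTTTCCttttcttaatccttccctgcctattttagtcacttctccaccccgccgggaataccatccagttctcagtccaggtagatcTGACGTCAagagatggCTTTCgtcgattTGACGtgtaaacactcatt

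In the 250 bases before the RefSeq start, Gpr83 had no GGAAA, 1 GAAAG that began 197 bases before the start, and 1 TGACG at 71 bases. Pcsk1 had 1 GGAAA at 164 bases, 1 GAAAG at 62 bases and 3 TGACG at 78, 75 and 50 bases, of which the first pair overlap in a palindrome. Pcsk1n had 1 GGAAA and neither of the others, and Ecel1 had none of the 3 motifs. Among 32851 windows of this length, 55.6% held GGAAA, 51.5% held GAAAG and 17.8% held TGACG, so GGAAA and GAAAG were each in over 50% of all windows. The letters GGAAA and GAAAG overlap where they follow each other, which did not happen here. The TGACG core was searched after the Pcsk1 sequence had been read.

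Gpr83, the receptor, lies on chromosome 9 (ENSMUSG00000031932, GRCm38 chr9:14860210-14870789, plus strand). Its longest coding transcript has 4 exons, the longest of which makes up 72.9% of its 3586 bases, and no other annotated gene overlaps it. The exon reads, all unique, numbered 801 for N, 5119 for αA and 404 for PαA. Its level was 7.51 RPKM in N (95% Poisson interval 7.00 to 8.05), 52.4 in αA (51.0 to 53.9) and 4.42 in PαA (4.00 to 4.88). Intervals here and below cover counting error only, and PCR copies are counted as reads. Gpr83 was thus high in αA alone, where it ranked 1078th of the genes by RPKM, against 5527th in N and 6378th in PαA. The level in αA was 6.97-fold that in N (log2 ratio 2.80, exact interval 2.69 to 2.91). PαA was 11.8-fold lower than αA (log2 ratio -3.57, -3.72 to -3.42). PαA was also lower than N, 1.70-fold (log2 ratio -0.76, -0.94 to -0.59), which is below the 2-fold limit used here.

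Penk, the enkephalin precursor, lies on chromosome 4 (ENSMUSG00000045573, chr4:4133531-4138819, minus strand). It was the most abundant of the 5 genes in N, where 16144 exon reads fell on it, beside 1809 for αA and 1302 for PαA, all unique. Its level was 332 RPKM in N (327 to 338), 40.6 in αA (38.8 to 42.6) and 31.3 in PαA (29.6 to 33.0). N stood apart, at the 195th rank of all genes, and αA and PαA lay close to each other. Penk was 8.18-fold lower in αA than in N (log2 ratio -3.03, -3.10 to -2.96). In PαA it was 10.6-fold lower than in N (log2 ratio -3.41, -3.49 to -3.33). PαA was 1.30-fold lower than αA (log2 ratio -0.38, -0.48 to -0.27), and this small difference changed sign with the reads that were counted, as given with the junction reads. An annotated noncoding gene on the plus strand, A830012C17Rik, overlaps Penk and was not analysed here. No source states that the counting used strand, so reads from either strand cannot be told apart.

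Pcsk1, the convertase, lies on chromosome 13 (ENSMUSG00000021587, chr13:75089826-75134861, plus strand), and its longest coding transcript has 14 exons. The exon reads, all unique, numbered 521 for N, 37 for αA and 1433 for PαA. Its level was 3.48 RPKM in N (3.19 to 3.79), 0.27 in αA (0.19 to 0.37) and 11.2 in PαA (10.6 to 11.8). The order was PαA, N, αA, with no overlap of the counting intervals. Pcsk1 was 12.9-fold lower in αA than in N (log2 ratio -3.69, -4.21 to -3.21). PαA was 41.4-fold higher than αA (log2 ratio 5.37, 4.90 to 5.88), and 3.21-fold higher than N (log2 ratio 1.68, 1.54 to 1.83).

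Pcsk1n, the inhibitor of PC1/3 and precursor of PEN, lies on chromosome X (ENSMUSG00000039278, chrX:7919822-7924410, plus strand). It had 0 exon reads, 0 intron reads and 0 junction reads in each of the 3 libraries. A count of 0 allows up to 3 reads, which is 0.046 RPKM in N, 0.050 in αA and 0.054 in PαA. It was therefore not detectable at this depth where its partner gene Pcsk1 was at 11.2 RPKM. Eras, which overlaps it on the other strand, had at most 2 reads in a library.

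Ecel1, of the neprilysin family, lies on chromosome 1 (ENSMUSG00000026247, chr1:87147655-87156521, minus strand), and its longest coding transcript has 18 exons. The exon reads, all unique, numbered 560 for N, 320 for αA and 36 for PαA. Its level was 5.93 RPKM in N (5.45 to 6.44), 3.70 in αA (3.30 to 4.12) and 0.44 in PαA (0.31 to 0.62). N and αA were within 2-fold of each other, and PαA was far below both. Ecel1 was 8.31-fold lower in PαA than in αA (log2 ratio -3.05, -3.59 to -2.56) and 13.3-fold lower than in N (log2 ratio -3.74, -4.26 to -3.25). Between αA and N it was 1.60-fold lower in αA (log2 ratio -0.68, -0.88 to -0.48).

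**Figure D1:**
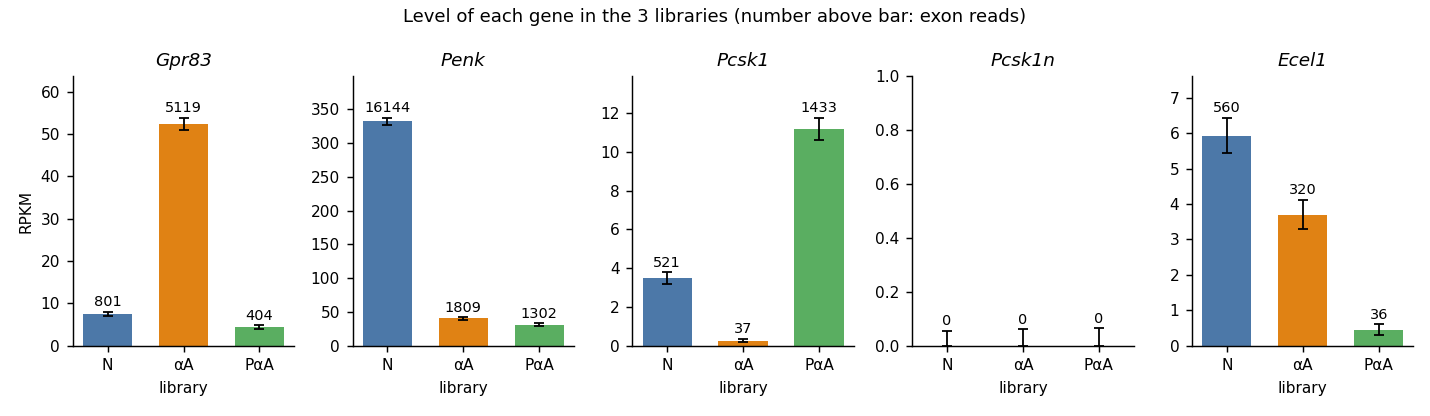
Level of Gpr83, Penk, Pcsk1, Pcsk1n and Ecel1 in RPKM (y axis, a scale of its own in each panel, from 0) in the libraries labelled N, αA and PαA. Bars give the RPKM of the 1 library per genotype, error bars the 95% Poisson interval of its exon reads, and the number above each bar the exon reads. Gpr83 is high in αA alone (52.4 RPKM), Penk in N alone (332), Pcsk1 highest in PαA (11.2) and Ecel1 low in PαA (0.44), while Pcsk1n has 0 reads throughout.

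Across the 3 comparisons, a gene was counted when its RPKM was above 5 in at least 1 library and its ratio above 2 either way. In αA against N, 1 of the 5 genes was counted as higher (Gpr83) and 2 as lower (Penk and Pcsk1). Of all 7017 genes above 5 RPKM, 1.44% were counted as higher and 2.81% as lower in this comparison. In PαA against αA, 1 gene was counted as higher (Pcsk1) and 2 as lower (Gpr83 and Ecel1), beside 2.18% and 2.45% of all genes. In PαA against N, 1 was counted as higher (Pcsk1) and 2 as lower (Penk and Ecel1), beside 2.57% and 7.77%. The genes were chosen for such differences, so nothing is read from these counts against the background. The 3 comparisons share libraries, so the counts do not stand for separate experiments.

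The member nearest above the limit of 5 RPKM was Ecel1, at 5.93 RPKM in its highest library, and the member below it was Pcsk1n at 0. The ratio nearest above 2-fold was that of Pcsk1 in PαA against N (3.21-fold), and the nearest below was that of Gpr83 in the same comparison (1.70-fold lower). Among 7004 expressed genes with reads in αA and PαA, no gene had a lower ratio than Gpr83, 3 had a lower ratio than Ecel1, and 1 had a higher ratio than Pcsk1. In αA against N, 10 of 7000 genes had a higher ratio than Gpr83, 11 a lower one than Pcsk1 and 13 a lower one than Penk. These ranks restate the choice of the genes.

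The median log2 ratio of all expressed genes was -0.14 in αA against N, -0.06 in PαA against αA and -0.19 in PαA against N. With TMM factors these medians were 0.02, 0.01 and 0.04. Relative to the median of RPKM ratios, Ecel1 was at -0.54 in αA against N, Penk at -0.32 in PαA against αA and Gpr83 at -0.57 in PαA against N. The scaling also moved the background. With TMM factors 134 genes were higher and 112 lower in αA against N, in place of 101 and 197 with RPKM. In PαA against N, 258 were higher and 251 lower, in place of 180 and 545, and TPM gave 188 and 1351. In PαA against αA, TPM gave 188 higher and 444 lower, in place of 153 and 172. The genes of the 5 that were counted were the same under each of these scalings.

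**Figure D2:**
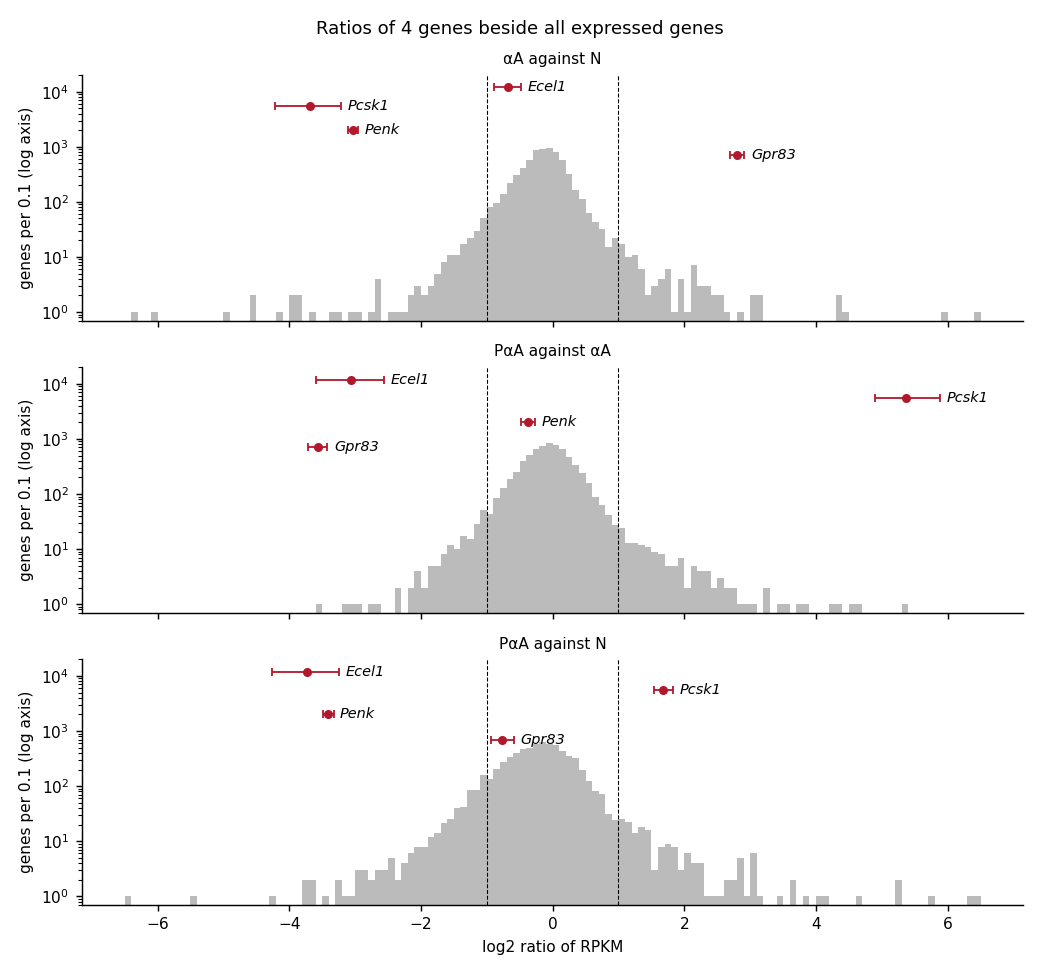
Log2 ratio of RPKM (x axis) in the 3 comparisons. Grey bars count the genes above 5 RPKM in at least 1 library per 0.1 of the ratio (y axis, log), with ratios beyond the axis drawn at its ends and genes with 0 reads in a library left out. Red points are Gpr83, Penk, Pcsk1 and Ecel1 at arbitrary heights, with their exact counting intervals. Dashed lines mark a 2-fold ratio. In PαA against αA, Pcsk1 lies at 5.37 and Gpr83 at -3.57, at the 2 ends of the grey bars.

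Reads that span a junction between exons come from spliced RNA, so they were counted separately. For Gpr83, 39 of 801 reads in N, 189 of 5119 in αA and 22 of 404 in PαA spanned a junction. The shares were 4.87%, 3.69% and 5.45%, where even coverage of its 4 exons by reads of 59 bases would give 4.93%, a value above the interval of αA (3.19% to 4.25%). On junction reads alone its log2 ratio was 2.40 in αA against N and -3.01 in PαA against αA. For Ecel1, with many short exons, 42.1%, 42.8% and 44.4% of the reads spanned a junction, where even coverage would give 33.1%. The exact binomial intervals of these shares overlapped, from 560 reads in N to 36 in PαA.

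For Pcsk1, 129 of 521 reads in N (24.8%, exact interval 21.1% to 28.7%) and 271 of 1433 in PαA (18.9%, 16.9% to 21.0%) spanned a junction. In αA 0 of 37 did (upper limit 9.49%), and 10 reads of αA lay in introns of Pcsk1, where N and PαA had 0. The 37 exon reads of αA were still denser than its intron reads, at 7.34 against 0.25 reads per kilobase. On junction reads alone, Pcsk1 was at least 39.4-fold lower in αA than in N and at least 96.6-fold higher in PαA than in αA, with 3 reads taken for the 0. Of all reads on genes, 5.30% lay in introns in αA, 3.62% in N and 3.91% in PαA, and the part of this in the 37 reads was not tested.

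For Penk, 1454, 135 and 174 reads of N, αA and PαA spanned a junction. Even coverage would give 4.17%. The share was 13.4% in PαA (11.6% to 15.3%) and 7.46% in αA (6.29% to 8.77%), and these intervals do not overlap. On junction reads alone the log2 ratio of PαA against αA was 0.46 (0.13 to 0.80), the opposite sign to that of all exon reads. The direction of Penk between αA and PαA thus differed with the reads counted. Against N, the log2 ratios on junction reads were -3.30 for αA and -2.84 for PαA. Intron reads of Penk were 60, 6 and 0 in N, αA and PαA.

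**Figure D3:**
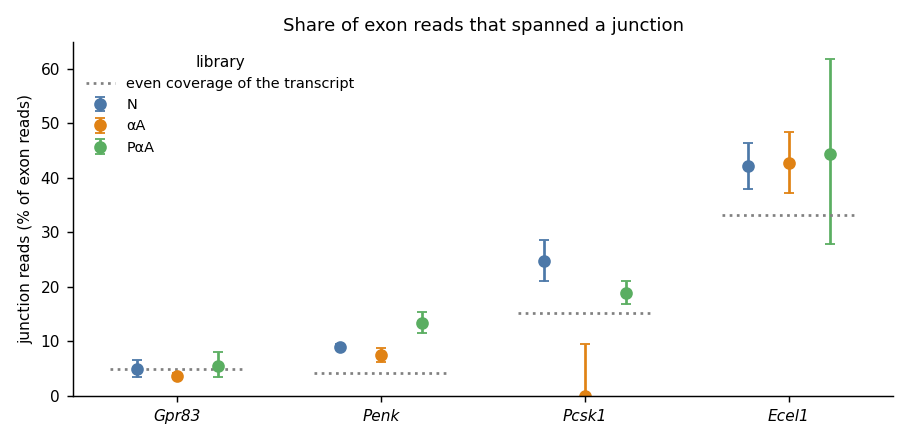
Share of the exon reads of Gpr83, Penk, Pcsk1 and Ecel1 that spanned a junction between exons (y axis, percent) in N, αA and PαA, with exact 95% binomial intervals. Dotted lines give the share that even coverage of the longest coding transcript would give. Pcsk1 has 0 of 37 reads across a junction in αA, and the share of Penk is higher in PαA (13.4%) than in αA (7.46%).

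Position on the chromosome was compared through the nearest gene above 5 RPKM on each side. Izumo1r, which encodes the folate receptor-like protein FR4 of Tregs and TFH cells, lies 15025 bases beyond Gpr83. It was at 462, 560 and 164 RPKM in N, αA and PαA, and its log2 ratio of PαA against αA was -1.77, the same side as Gpr83. In αA against N Izumo1r was at 0.28, far from the 2.80 of Gpr83. On the other side of Gpr83, Cwc15, which encodes a spliceosome protein, was at 64.1, 67.1 and 68.5 RPKM.

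Among the neighbours of the other genes, only Ell2 passed 2-fold. Cast, the calpain inhibitor gene 281 kb before Pcsk1, was at 18.8, 10.3 and 11.3 RPKM. Ell2, an elongation factor gene 572 kb after it, was at 8.32, 2.59 and 2.89 RPKM, with log2 ratios of -1.68 in αA against N and 0.16 in PαA against αA, where Pcsk1 was at 5.37. Dis3l2 and Eif4e2 beside Ecel1, Timm17b and Was beside Pcsk1n, and Impad1 and the predicted gene Gm11808 beside Penk were within 2-fold in all 3 comparisons.

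The other genes of neuropeptide processing were counted from lists of precursors, convertases and their helpers, trimming enzymes, peptidases and receptors. The lists named 86 genes besides the 5, of which 83 were in the tables, 33 were above 1 RPKM in at least 1 library, 21 were above 5 RPKM and 16 had no exon read. Only those 21 were able to pass. In αA against N, 0 of the 21 were counted as higher and 1 as lower (Calca, lost with TMM factors), beside 1.44% and 2.81% of all genes. In PαA against αA, 2 were higher (Ramp1 and Ramp3) and 1 lower (Calca), beside 2.18% and 2.45%. In PαA against N, 2 were higher (Cpe and Ramp3) and 1 lower (Calca), beside 2.57% and 7.77%. Calca was lost with TMM factors in these comparisons too. The median log2 ratio of those above 1 RPKM with reads in both libraries was -0.16 in αA against N (31 genes), -0.16 in PαA against αA (31 genes) and -0.37 in PαA against N (33 genes). All expressed genes, taken above the higher limit of 5 RPKM, had medians of -0.14, -0.06 and -0.19, so the 2 sets of medians differ in their limit.

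Among precursors, Penk had few companions. Of 15 other precursors listed, 11 stayed below 1 RPKM, and 9 had no exon read, among them Tac1, Sst and Adcyap1. Nmb, which encodes neuromedin B, was the highest of them, at 27.4, 48.7 and 36.9 RPKM in N, αA and PαA. Calca, which encodes calcitonin and the peptide CGRP, was at 5.28 RPKM in N (257 reads), 0.29 in αA (13 reads) and 0.12 in PαA (5 reads). It was high in N alone, as Penk was, and 18.1-fold lower in αA than in N (log2 ratio -4.18, -5.11 to -3.38). The ratio of PαA against αA, by which it was counted as lower, rested on 5 and 13 reads, and its interval held 0 (log2 ratio -1.28, -3.12 to 0.30).

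Npy (neuropeptide Y) and Gal (galanin) were lowest in αA, as Pcsk1 was, but highest in N. Npy had 75, 0 and 29 reads (4.46 RPKM in N), so that it was at least 22.9-fold lower in αA than in N. Gal had 31, 0 and 7 reads. Both stayed below 5 RPKM and were not counted.

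Opioid partners of Penk were scarce. The genes of the classical opioid receptors, Oprd1, Oprk1 and Oprm1, and Oprl1 of the nociceptin receptor had 0 to 16 exon reads in a library. The precursor genes Pdyn, Pnoc and Pomc had 0 to 11. Ackr3, a scavenging receptor that binds opioid peptides, had 9, 9 and 71 reads in N, αA and PαA (0.83 RPKM in PαA). Ogfr, the opioid growth factor receptor gene, was the exception at 40.6, 32.1 and 28.9 RPKM, with log2 ratios within 2-fold.

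Of the other convertases, 3 were above 5 RPKM. Furin was at 17.2, 17.2 and 16.1 RPKM, Pcsk7 at 5.56, 6.40 and 7.29, and Mbtps1, of the site-1 protease, at 26.7, 23.9 and 15.2, none beyond 2-fold. Mbtps1 was 1.76-fold lower in PαA than in N and passed 2-fold there with TPM. Pcsk2, the convertase that shares neuroendocrine granules with PC1/3, had 0, 1 and 0 exon reads, although 142 reads lay in its introns in αA. Scg5, the 7B2 chaperone of the Pcsk2 product, had the same order as Pcsk1 at a low level, with 26, 3 and 50 reads. For Scg5 the log2 ratio of PαA against αA was 4.16, with an interval of 2.53 to 6.48 from those few reads.

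Granins, which fill dense-core granules, were near 0. Scg2 was the highest, at 0.91, 0.26 and 0.19 RPKM, and Chgb and Scg3 had no exon read. Of the enzymes that finish cut peptides, Cpe, the carboxypeptidase that acts after PC1/3, was at 4.13, 5.84 and 8.74 RPKM. It was 2.11-fold higher in PαA than in N (log2 ratio 1.08, 0.86 to 1.30), the comparison in which Pcsk1 was 3.21-fold higher, and was not counted there with TPM. Cpd, a related carboxypeptidase, was at 7.46, 7.64 and 8.77 RPKM, Rnpep, an aminopeptidase, was at 51.5, 45.5 and 37.2, and Pam, which amidates peptides, was at most 1.04.

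Beside Ecel1, the neprilysin family was represented by Ece1, an endothelin-converting enzyme, at 8.94 to 11.7 RPKM, within 2-fold throughout. Mme, the gene of neprilysin itself, had at most 19 reads, and Kel, Mmel1 and Phex at most 10. Of 10 other peptidases, 5 were above 5 RPKM and none passed 2-fold. Dpp4, which clips many peptides at the end, came nearest, at 16.4, 8.64 and 8.21 RPKM, 1.997-fold lower in PαA than in N, and passed 2-fold there with TPM.

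Among receptors, the subunits of the CGRP and adrenomedullin receptors were the ones that passed. Ramp3 was at 5.62, 4.29 and 18.9 RPKM, 4.41-fold higher in PαA than in αA (log2 ratio 2.14, 1.88 to 2.41). Ramp1 was at 11.7, 7.92 and 16.5 RPKM, 2.08-fold higher in PαA than in αA, and was not counted there with TPM. Calcrl, their shared partner, was at 8.13, 7.62 and 6.18, within 2-fold. Nmur1, of a neuromedin U receptor, had 157, 28 and 86 reads, lowest in αA.

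Gpr171, described as a receptor for another proSAAS peptide, was listed at 27.9, 20.8 and 17.2 RPKM. Only 23, 32 and 15 of its 1846, 1259 and 977 exon reads were unique, so its level is uncertain. Gprasp1, of a protein that sorts such receptors, was at 7.46, 7.91 and 4.88 RPKM and was likewise mostly non-unique.

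**Figure D4:**
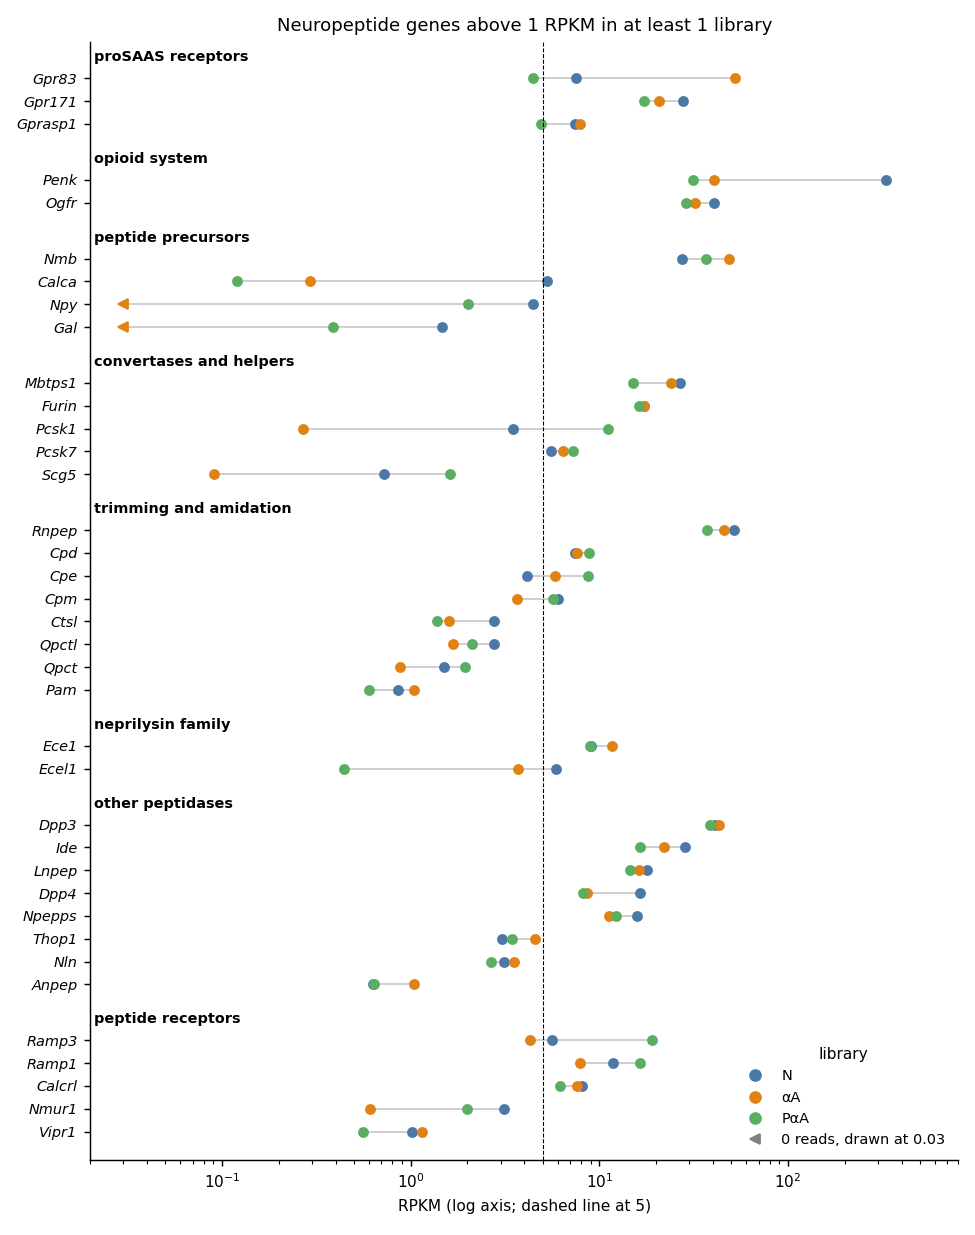
RPKM (x axis, log) of the listed neuropeptide genes above 1 RPKM in at least 1 library, with the 4 detected members, grouped by role. Each point is 1 library, N, αA or PαA, the line joins the lowest and highest, triangles are 0 reads and the dashed line is 5 RPKM. Penk, Gpr83, Pcsk1, Ecel1, Calca, Npy, Gal and Scg5 span wide ranges, while Furin, Ece1 and Dpp3 hardly differ.

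The genes nearest to each member in pattern were taken as those with the smallest distance over the log2 ratios of the 3 pairs of libraries, which are only 2 independent ratios. For Gpr83 the nearest was Il10, the gene of the cytokine IL-10, at 22.1, 69.4 and 17.4 RPKM in N, αA and PαA (distance 1.99). Hspb1, a small heat-shock protein gene, Twsg1, an extracellular regulator of BMP signals, Mmp9, of a matrix metalloproteinase, and Sqor, of a sulfide-oxidising enzyme, followed at 2.30 to 2.52. No gene lay within a distance of 1 of Gpr83, and none of the 5 had ratios as far from 1 as Gpr83 in αA against N. The order αA, N, PαA was shared by Il10, Twsg1, Mmp9 and Sqor.

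For Penk, 3 genes lay within 1. These were Epas1, the gene of HIF-2α, at 15.3, 2.48 and 1.69 RPKM (distance 0.50), Wdfy1 at 6.47, 0.62 and 0.47 (0.50), and Nav2 at 6.10, 0.97 and 0.78 (0.58). Fam69c and Gzma, of granzyme A, came next. For Ecel1 the nearest was Ddc, of the decarboxylase that makes dopamine and serotonin, at 7.15, 3.75 and 0.58 RPKM (distance 0.46). Art2a-ps, Ier5l, Snx9 and Ncmap followed at 1.14 to 1.58.

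Pcsk1 had no gene within 1, and the nearest lay at 2.39. This was S100a8, a neutrophil marker, with 185, 11 and 147 reads in N, αA and PαA, and it was followed by Gzmk, Fam89a, Col1a2 and Krt83. In PαA against N, where Pcsk1 was 3.21-fold higher, Col1a2 was 2.47-fold lower and S100a8 had a log2 ratio of -0.11, with an interval of -0.43 to 0.21 that held 0. Among the members themselves, the nearest pair in pattern was Penk and Ecel1 (distance 3.56) and the farthest was Gpr83 and Pcsk1 (11.3).

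**Figure D5:**
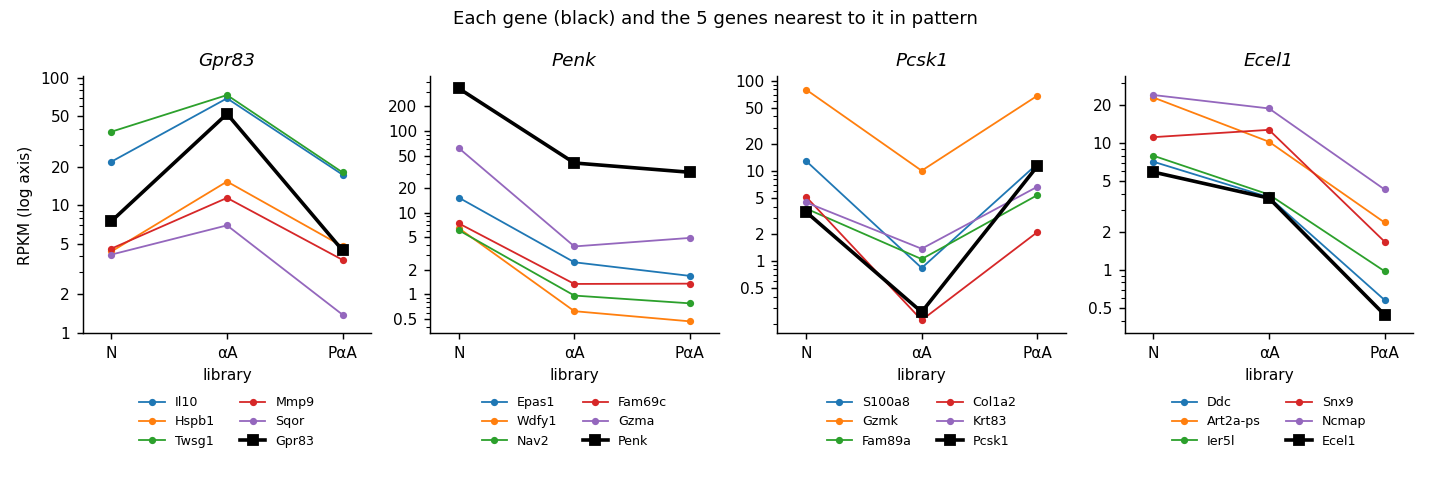
RPKM (y axis, log) in the libraries N, αA and PαA for Gpr83, Penk, Pcsk1 and Ecel1 (black squares) and the 5 genes nearest to each in pattern (coloured circles), 1 library per point. Epas1, Wdfy1 and Nav2 run parallel to Penk and Ddc parallel to Ecel1, while no gene runs parallel to Gpr83 or Pcsk1.

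Markers of other cells were set beside these patterns. In bulk RNA, fewer cells of a type and less RNA per cell cannot be told apart. Tubb3, Snap25, Syn1, Syt1 and Neurod1, markers of neurons and neuroendocrine cells, the cells best known for Pcsk1, Penk and Ecel1, summed to 0.14, 0.28 and 0.13 RPKM in N, αA and PαA, and Neurod1 and Syt1 had no exon read. Some markers of neutrophils and stroma, and Eomes of the CD8 T cell and NK cell set, were lowest in αA, as Pcsk1 was. S100a9 had 235, 0 and 153 reads, Col1a1 907, 36 and 188, Col1a2 842, 33 and 292, and Eomes of the NK cell set 410, 103 and 320. Others of the same sets went the other way, with Adgre1 2.31-fold, Csf1r 1.70-fold and Cdh5 5.82-fold higher in αA than in N. In the set of Eomes, Klrb1c was 1.45-fold higher in αA than in N, and Ncr1 had 12, 15 and 10 reads. By the 2-fold limit, 3 of the 6 neutrophil and macrophage markers were lower and 1 higher in αA than in N, and 2 of the 5 stromal and endothelial markers were lower. Of all genes above 5 RPKM, 2.81% were lower and 1.44% higher in this comparison.

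The 6 neutrophil and macrophage markers summed to 256, 150 and 219 RPKM and the 5 stromal and endothelial markers to 23.9, 10.4 and 13.5. The 5 plasma cell markers summed to 69.8, 85.0 and 120, with Sdc1, of syndecan-1, at 72, 91 and 495 reads, highest in PαA as Pcsk1 was. Jchain, the largest part of the sum, was at 44.3, 58.4 and 94.8 RPKM, and Mzb1 at 4.01, 6.69 and 6.94. Others of this set went the other way. Irf4 was lowest in PαA, at 20.5, 17.9 and 12.3 RPKM, and Tnfrsf17 had 5, 21 and 0 reads. The 6 B cell markers summed to 16.0, 12.9 and 14.6 RPKM, the 5 dendritic cell markers to 3.16, 2.41 and 4.05, and the 5 CD8 T cell and NK cell markers to 15.8, 19.6 and 17.3. The members of the last set differed among themselves, with Cd8a at 18, 179 and 231 reads and Cd8b1 at 400, 486 and 198.

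The 5 erythroid markers summed to 572, 2407 and 2151 RPKM, with N lowest, while Penk was highest in N. The sum of the TFR markers was 1149, 1024 and 584 RPKM, highest in N as Penk was. Within it, Foxp3 was 1.56-fold and Pdcd1 1.66-fold lower in αA than in N, while Cxcr5 was 1.68-fold higher. Ecel1 and the TFR markers were both lowest in PαA, at 0.44 RPKM and 584 RPKM. Of the sets of other cells, the erythroid and the CD8 T cell and NK cell sums were highest in αA, as Gpr83 was, at 2407 and 19.6 RPKM. Within the latter set, Cd8a and Klrb1c were highest in PαA. Of the reads of an erythroid marker, 6.19% to 37.0% were unique. The neuron sum of 0.28 RPKM in αA rested on at most 10 reads of a marker, too few to give an order. The part of these markers in the results was not tested.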

How the data were processed

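RNA-seq of sorted TFR cells, 1 library per genotype, was used. The authors prepared poly(A) libraries, aligned reads to GRCm38 in CLC Genomics Workbench and deposited, per gene, counts of exon reads (total and unique), junction reads and intron reads as whole numbers, not normalized. They also deposited RPKM and TPM with decimal commas. The annotation release is not given in the sources used here. The column called expression value equals the total exon reads.

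The genes and lists were chosen with earlier results of these data known. Each library total was worked back from exon reads, lengths and RPKM. A gene was counted when its RPKM was above 5 in at least 1 library and its ratio above 2, after the filter the study states, with its expression value read as RPKM. Intervals of 95% were Poisson for RPKM and exact (Clopper-Pearson) for shares and ratios. A count of 3 reads was the detection floor. With 1 library per genotype no test was run. The genes named were the 5 members, the listed genes that were counted, up to 4 others of highest RPKM per list, the 5 nearest in pattern (above 5 RPKM, at least 100 reads and at least 50% unique, 0.5 reads added) and genes called Gpr and a number. Others, such as Npy, Gal, Scg5, Nmur1, Ackr3, marker genes and genes with few reads, were named after their values were seen. Gene models were from GENCODE M21 and promoters from RefSeq.

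Alternatives were TPM, TMM factors (edgeR 4.0.16 in R 4.3.3, on the deposited counts), median-of-ratios factors, unique reads, other limits of RPKM and fold, 1 added to RPKM, and thinned reads. Junction reads alone were added after seeing the data. The other steps used Python with pandas, numpy and scipy. The filter and intervals were tested on simulated data. The value of 1 listed marker gene is not reported here.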

Additional observations from a re-analysis of the deposited data

How the results depend on the processing

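The 12 log2 ratios of the 4 detected members kept their sign under all 6 alternatives of scaling, read type, thinning or added RPKM. Little can be read from this. All reads of these genes were unique, so unique reads gave the same values, and adding 1 to both RPKM cannot change a sign. TPM, TMM and median-of-ratios factors shift all genes of a pair alike. Over the 6 alternatives, Gpr83 ranged from 2.65 to 2.97 in αA against N and from -3.73 to -3.30 in PαA against αA. Penk ranged from -3.06 to -2.86 in αA against N, and Pcsk1 from 3.26 to 5.45 in PαA against αA, the lowest with 1 added to both RPKM. Ecel1 ranged from -3.22 to -1.70 in PαA against αA, the value nearest 0 again with 1 added. On junction reads alone, chosen after seeing the data, Penk reversed in PαA against αA, at 0.46. The cause was not tested.

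The number of members past the limits was 3 in each comparison and stayed between 2 and 4 under all 10 alternatives. With an RPKM above 10 Ecel1 left in both comparisons with PαA, and with a ratio above 1.5 Ecel1 joined in αA against N and Gpr83 in PαA against N.

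The counts of other listed genes were small and moved with the limits. In αA against N the count was 1, but 3 with TPM, 0 with TMM factors, 5 with an RPKM above 1, 0 with an RPKM above 10 and 4 with a ratio above 1.5. Calca, which had 5.28 RPKM in N, was lost with TMM factors and with an RPKM above 10, and with median-of-ratios factors Nmb took its place. In PαA against αA the count was 3, but 9 with an RPKM above 1, 6 with a ratio above 1.5, 1 with a ratio above 3 and 1 with 1 added to both RPKM. In PαA against N it was 3, but 6 with TPM, 7 with an RPKM above 1, 1 with an RPKM above 10 and 8 with a ratio above 1.5.

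No paired analysis was possible because each genotype had 1 library. For the same reason none was left out, and no value carries a spread between mice. Depth limits Pcsk1 in αA (37 reads) and Ecel1 in PαA (36 reads).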

Other observations

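Gpr83 was 1 of 69 genes called Gpr and a number in the tables, of which 15 were above 5 RPKM in at least 1 library. In αA it was second of the 69 and gave 12.8% of their summed RPKM, against 12th and 2.05% in N and 13th and 1.17% in PαA. Gpr183, the oxysterol receptor gene, was first in αA at 82.6 RPKM, but only 3.15% of its exon reads there were unique. Of the 15, 1 was counted as higher in αA than in N, and this was Gpr83, beside 1.44% of all genes. Gpr18 came nearest, at 1.99-fold higher, and passes 2-fold with TMM factors. Only 1.04% to 6.92% of its reads were unique. In PαA against αA, 2 were higher (Gpr15 and Gpr180) and 3 lower (Gpr83, Gpr55 and Gpr34), beside 2.18% and 2.45%. In PαA against N, 1 was higher (Gpr15) and 3 lower (Gpr55, Gpr155 and Gpr34), beside 2.57% and 7.77%. Genes near 2-fold moved with the scaling. Gpr180 (2.09-fold higher in PαA than in αA) falls within 2-fold with TPM. In PαA against N, Gpr155 (2.19-fold lower) falls within 2-fold with TMM factors, and Gpr132 (1.95-fold higher) passes it. Of the reads of Gpr34, 3.36% to 7.21% were unique, so its level is uncertain.

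Gpr15, a homing receptor of the gut, was at 14.1, 10.0 and 50.1 RPKM in N, αA and PαA, all reads unique, so it was highest where Gpr83 was lowest. Gpr55 was at 18.8, 15.8 and 2.41 RPKM, with 31.9% to 42.1% of its reads unique, and was low in PαA alone, as Ecel1 was. Gpr65, a proton-sensing receptor gene, was at 38.2, 30.7 and 21.6 RPKM, within 2-fold in all 3 comparisons. Gpr132 was at 28.8, 29.3 and 56.1 RPKM.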
